A study of Homo sapiens with 12 samples.

Results

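The desmosome genes were examined in LM2 cells, which descend from the established human breast cancer line MDA-MB-231 and were selected for their ability to colonise lung. The 8 genes were taken by symbol from a list of desmosome components, DSP, DSG2, DSC2, DSC3, JUP, PKP2, PKP3 and PKP4, and each had a row among the 26006 of the deposited table. They were chosen with earlier results of these data known, so their counts beside the shares of all tested genes are a description. The 12 libraries formed 4 groups of 3: LM2 cells transduced with a scramble short hairpin RNA (shRNA), transduced with an EZH2 shRNA, transfected with a small interfering RNA (siRNA) of scramble sequence, and transfected with a ZRANB1 siRNA. EZH2 is the histone H3 lysine 27 methyltransferase of Polycomb repressive complex 2, and ZRANB1 is a deubiquitinase. All groups came from this same line in DMEM with serum, the labels did not say how many different hairpins or siRNAs stood behind a group, and they did not say that libraries of a group were separate cultures, so the p-values reflect the spread among these samples alone and that spread may be technical. In bulk RNA, fewer cells that express a gene and less of its RNA per cell cannot be told apart.

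Desmosomes are spot-like junctions that tie the intermediate filaments of neighbouring epithelial cells together. Desmogleins and desmocollins, which are cadherins, span the membrane and bind their counterparts on the next cell. Inside, the armadillo proteins plakoglobin (JUP) and the plakophilins (PKP genes) bind the cadherin tails and recruit desmoplakin (DSP), which holds the keratin or vimentin filaments. In carcinoma cells of mesenchymal character the junction is commonly reduced, and plakoglobin and some plakophilins are also found outside it.

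Expression was given as FPKM, fragments per kilobase of transcript scaled to library size, so levels of different genes could be compared per length. The depth behind a value was unknown. The 3 values of a group were sorted as character strings in every row with 3 different values, so a value could not be traced to its library, and values are given from lowest to highest. Changes were tested with limma on log2(FPKM + 1) over the 11929 genes whose mean reached 1 FPKM, with all 4 groups in the fit, and were called at a Benjamini-Hochberg adjusted p below 0.05. The fold changes are on that scale, which understates the change of low genes. EZH2 was at 16.5 ± 0.681 FPKM (SD, n = 3) under its shRNA against 35.4 ± 1.07 FPKM in the control, whereas ZRANB1 was at 10.0 ± 1.31 FPKM under its siRNA against 11.4 ± 0.795 FPKM, a difference that was not called (limma adjusted p = 0.349). A lower ZRANB1 transcript level was therefore not shown, and the last group is called the libraries labelled ZRANB1 siRNA. EZH2 itself was lower in these libraries than in their control (log2 fold change -0.66, limma adjusted p = 5.43e-05) and higher in the siRNA control than in the shRNA control (0.45, limma adjusted p = 2.31e-04). The 5 markers listed for the line were present, with VIM at group means of 2573 to 2836 FPKM and KRT8 at 184 to 267 FPKM. CD44, of the same list, ran from 118 FPKM with the scramble siRNA to 264 FPKM with the scramble shRNA. The oestrogen receptor gene ESR1 did not exceed a group mean of 0.0131 FPKM and the progesterone receptor gene PGR was listed at 0. Of the 7 luminal markers listed, 3 had a mean of at least 1 FPKM in every group: EPCAM at 3.53 to 8.23 FPKM, GATA3 at 3.70 to 6.74 FPKM and ERBB3 at 1.13 to 2.22 FPKM.

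Of the 8 genes, 7 passed the filter on low values; DSC3 did not. DSG2, PKP4, DSP and PKP3 were the most abundant transcripts per length, and PKP2, JUP and DSC2 lay below them. DSG2 had a mean over the 12 values of 30.5 FPKM, above 73.8% of tested genes, PKP4 29.3 FPKM, DSP 21.7 FPKM and PKP3 15.8 FPKM. PKP2 followed with 10.0 FPKM, JUP with 7.34 FPKM and DSC2 with 3.21 FPKM, the last above 16.1% of tested genes. The summed group means of the 8 genes were 105 FPKM with the scramble shRNA, 112 FPKM with the EZH2 shRNA, 134 FPKM with the scramble siRNA and 120 FPKM in the libraries labelled ZRANB1 siRNA. These sums have no SD, because the values of different genes could not be joined by library. DSP made up 12.7% of the sum with the scramble shRNA and between 19.1% and 20.5% in the other 3 groups. The share of DSG2 was 30.0% with the scramble shRNA, 29.8% with the EZH2 shRNA, 24.9% in the libraries labelled ZRANB1 siRNA and 20.3% with the scramble siRNA. Shares of a sum depend on each other, so a lower share of DSG2 also reflects higher levels of other members.

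**Figure D1:**
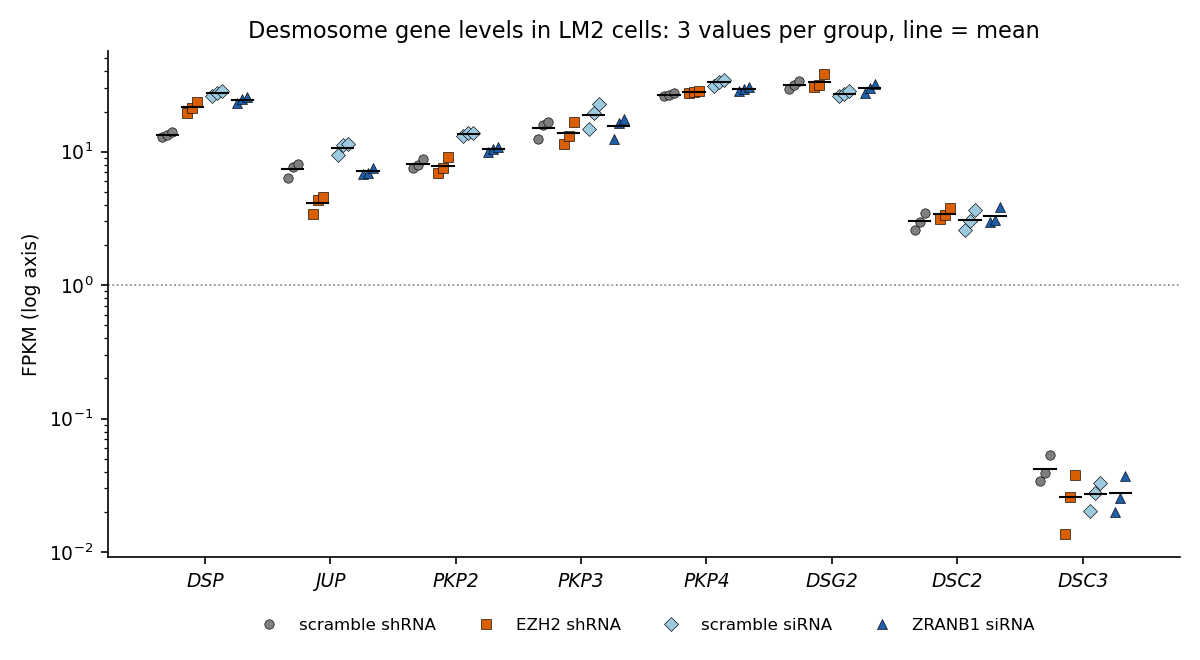
FPKM (log axis) of the 8 desmosome genes in the 4 groups; points are the 3 values of a group drawn from lowest to highest, which is not an order of replicates, black lines are means, and the dotted line is 1 FPKM. DSP is lowest with the scramble shRNA (mean 13.4 FPKM), JUP is lowest with the EZH2 shRNA (mean 4.12 FPKM), and DSC3 does not exceed 0.0533 FPKM in any of the 12 values.

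**Figure D2:**
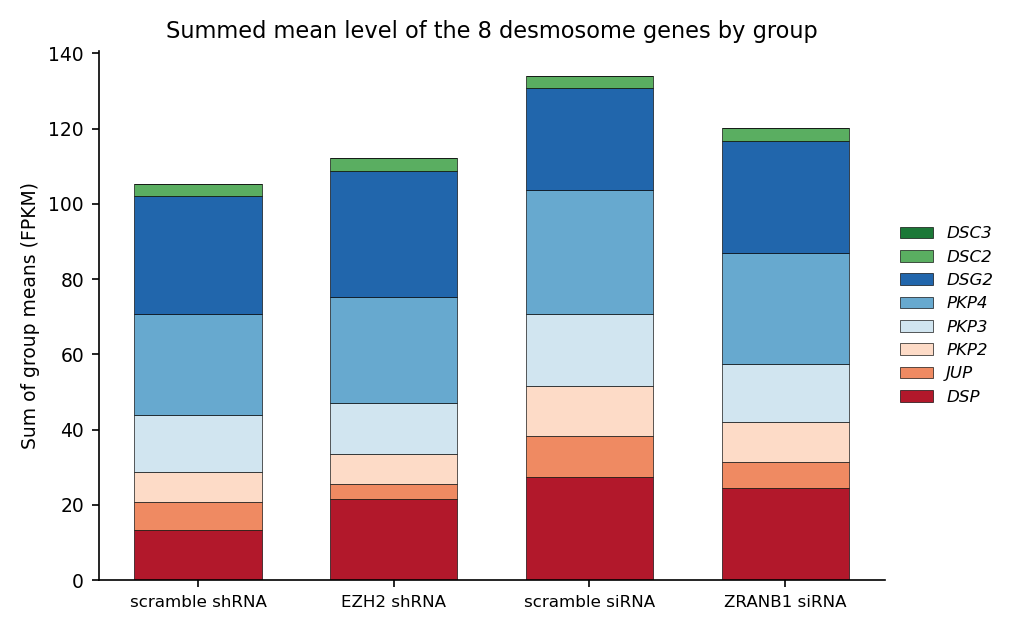
Group means of the 8 desmosome genes stacked by group, in FPKM from 0; there is no error bar because values of different genes could not be joined by library. The sum runs from 105 FPKM with the scramble shRNA to 134 FPKM with the scramble siRNA, and DSC3 is too low to be seen.

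The comparison of the EZH2 shRNA with its scramble control asked what changes when EZH2 is depleted. DSP rose and JUP fell, while the cadherins and the plakophilins did not pass the test. Of the 7 tested desmosome genes, 1 rose and 1 fell, where 6.41% of all tested genes were called, 3.39% higher and 3.03% lower. The median log2 fold change of the 7 genes was 0.066, against -0.014 over all tested genes. The change of DSP was larger in size than that of 97.5% of tested genes, and that of JUP larger than that of 98.1%. The values of both genes, 2 of 7, did not overlap between the groups, which held for 22.1% of tested genes.

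DSP encodes desmoplakin, the plakin that links the junction to intermediate filaments. Its values were 12.8, 13.2 and 14.0 FPKM in the scramble shRNA control against 19.4, 21.3 and 23.6 FPKM with the EZH2 shRNA. All 3 values with the EZH2 shRNA thus lay above the control values. The means were 13.4 ± 0.599 and 21.5 ± 2.11 FPKM (SD, n = 3), a ratio of 1.61, with a log2 fold change of 0.64 (SE 0.0808, 95% interval 0.46 to 0.82) and a limma adjusted p of 9.69e-04. The two-sided exact permutation test gave 0.1, the smallest p that 3 values against 3 allow. The scramble shRNA group was also the lowest of all groups for this gene: DSP stood at 26.0, 27.6 and 28.7 FPKM with the scramble siRNA and at 23.0, 24.6 and 25.7 FPKM in the libraries labelled ZRANB1 siRNA. In the order of levels, scramble shRNA and EZH2 shRNA differed, EZH2 shRNA and ZRANB1 siRNA were not called different (limma adjusted p = 0.119), and neither were ZRANB1 siRNA and scramble siRNA (limma adjusted p = 0.21). Of all tested genes, 28.3% were called between the EZH2 shRNA and ZRANB1 siRNA groups. The EZH2 shRNA and scramble siRNA groups, not neighbours in this order, were called different for DSP. Their values did not overlap, and the scramble siRNA lay above by 0.34 on the log2 scale (limma adjusted p = 0.00396). Between these groups, 51.6% of all tested genes were called.

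JUP encodes plakoglobin, the armadillo protein that binds the cadherin tails in desmosomes and also occurs in adherens junctions. Its values were 6.39, 7.68 and 8.13 FPKM in the scramble shRNA control against 3.43, 4.36 and 4.56 FPKM with the EZH2 shRNA. The groups did not overlap. The means were 7.40 ± 0.900 and 4.12 ± 0.600 FPKM (SD, n = 3), so the level with the EZH2 shRNA was 55.6% of the control, with a log2 fold change of -0.72 (SE 0.111, 95% interval -0.96 to -0.47) and a limma adjusted p of 0.00369. With only the 6 values of both shRNA groups in the fit, this call was lost (limma adjusted p = 0.0614), whereas that of DSP held (limma adjusted p = 0.0374). The ratio of the DSP mean to the JUP mean was 1.80 with the scramble shRNA and 5.21 with the EZH2 shRNA.

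The windows before the RefSeq transcription starts of DSP and JUP are shown because these genes were called in opposite directions with the EZH2 shRNA. They are the 250 bases before each start in GRCh38.p14, taken from a RefSeq table in which 6 of the 8 genes matched (DSP, DSG2, DSC2, DSC3, JUP and PKP4), and they are a description of the reference, not of the LM2 genome. Capitals mark matches on either strand of the E-box CAGGTG, the sequence that the epithelial repressors ZEB1 and SNAI2 are known to bind; the sequences read 5′ to 3′ on the strand of the gene.
DSP, chr6:7541421-7541670, plus strand: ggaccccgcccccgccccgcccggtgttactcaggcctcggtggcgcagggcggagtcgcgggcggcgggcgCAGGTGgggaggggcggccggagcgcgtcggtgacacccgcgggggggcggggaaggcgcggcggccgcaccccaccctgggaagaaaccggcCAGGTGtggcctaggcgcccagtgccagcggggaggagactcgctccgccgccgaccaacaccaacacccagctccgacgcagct
JUP, start 1, chr17:41786712-41786961, minus strand: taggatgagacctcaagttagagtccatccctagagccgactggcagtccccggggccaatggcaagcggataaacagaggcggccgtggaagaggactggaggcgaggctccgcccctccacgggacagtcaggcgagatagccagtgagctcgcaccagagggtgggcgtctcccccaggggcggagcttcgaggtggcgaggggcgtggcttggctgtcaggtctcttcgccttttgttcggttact
JUP, start 2, chr17:41785977-41786226, minus strand: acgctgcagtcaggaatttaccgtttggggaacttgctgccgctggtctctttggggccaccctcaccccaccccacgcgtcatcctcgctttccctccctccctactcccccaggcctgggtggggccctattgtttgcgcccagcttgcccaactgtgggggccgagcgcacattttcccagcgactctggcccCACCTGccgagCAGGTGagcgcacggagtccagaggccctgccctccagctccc
The DSP window held 2 matches to the E-box, at bases -178 to -173 and -85 to -80 counted from the start, the second JUP window 2 matches at -54 to -49 and -43 to -38, and the first JUP window 0. Such a match was found in 17.5% of the 35116 RefSeq windows of the same length. Genes not called with the EZH2 shRNA held the E-box too: the DSG2 window had 2 matches and the first DSC2 window 1. The second DSC2 window and the windows of DSC3 and PKP4 had 0. The DSP window also held 7 matches to the GC box GGGCGG, searched on both strands, a motif present in 42.6% of windows; the first JUP window held 2 and the second 0. No E-box shared a base with a GC box in these windows, whereas 2 of the GC boxes of DSP shared 1 base with each other. The DSP window held 33 CpG dinucleotides, more than 91.9% of the windows, and the JUP windows 17 and 13, where the median window held 11. No window of DSP or JUP held the AP-1 sequence TGANTCA (6.57% of windows) or the TEAD sequence CATTCC (11.9% of windows), each searched on both strands.

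Plakophilins are armadillo proteins that cluster the cadherins and bring in desmoplakin. With the EZH2 shRNA, PKP2 had 6.94, 7.49 and 9.09 FPKM against 7.53, 7.89 and 8.75 FPKM in its control. These ranges overlapped, and the log2 fold change was -0.04 (95% interval -0.24 to 0.16, limma adjusted p = 0.86). PKP3, which had the widest spread among the plakophilins, had 11.4, 13.0 and 16.8 FPKM against 12.4, 15.8 and 16.8 FPKM, a log2 fold change of -0.12 (95% interval -0.53 to 0.28, limma adjusted p = 0.764). PKP4, a plakophilin related to p120 catenin that is also found at adherens junctions, had 27.6, 28.1 and 28.7 FPKM against 26.3, 26.5 and 27.7 FPKM. Its log2 fold change was 0.066 (95% interval -0.066 to 0.20, limma adjusted p = 0.582), so a change of the size seen for DSP lies outside the intervals of PKP2, PKP3 and PKP4.

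The cadherins were DSG2, the desmoglein of simple epithelia and of most desmosome-bearing cells, and DSC2, its widely expressed desmocollin partner. DSG2 had 30.7, 31.4 and 38.3 FPKM with the EZH2 shRNA against 29.3, 31.5 and 33.9 FPKM in its control, with a log2 fold change of 0.078 (95% interval -0.13 to 0.29, limma adjusted p = 0.703). DSC2 had 3.15, 3.36 and 3.80 FPKM against 2.60, 2.95 and 3.47 FPKM, a log2 fold change of 0.15 (95% interval -0.13 to 0.43, limma adjusted p = 0.54). Both pairs of groups overlapped. The DSG2 mean was 10.5 times the DSC2 mean with the scramble shRNA, 9.74 times with the EZH2 shRNA, 8.79 times with the scramble siRNA and 9.07 times in the libraries labelled ZRANB1 siRNA.

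DSC3, a desmocollin of the basal layers of stratified epithelia, was near the bottom of the scale in all groups. Its values were 0.0338, 0.0388 and 0.0533 FPKM in the scramble shRNA group, 0.0136, 0.0259 and 0.0378 FPKM under the EZH2 shRNA, 0.0204, 0.0279 and 0.0330 FPKM with the scramble siRNA and 0.0201, 0.0255 and 0.0372 FPKM in the libraries labelled ZRANB1 siRNA. The fragments behind such values are unknown, and no fold is drawn from them. Without a filter on low values, DSC3 was not called in either comparison with a scramble control (limma adjusted p = 0.565 and 1). In RefSeq (GRCh38.p14) the 7 desmosomal cadherin genes lie side by side on chromosome 18 in the order DSC3, DSC2, DSC1, DSG1, DSG4, DSG3 and DSG2. Only the second and the last of this row exceeded 1 FPKM: DSG1 and DSG4 were listed at 0 in all 12 values, DSC1 was listed at 0 in 9 and reached 0.0480 FPKM, and DSG3 ran from 0.0137 to 0.147 FPKM.

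The other desmosomal genes were mostly low as well. Of 7 listed genes (DSG1, DSG3, DSG4, DSC1, PKP1, PERP and CDSN), PERP was the only one tested. PERP, a p53 target and tetraspan membrane protein of desmosomes, had group means of 23.9 ± 3.52, 30.4 ± 3.80, 26.6 ± 4.30 and 28.1 ± 3.63 FPKM (SD, n = 3) in the order of the scramble shRNA and its EZH2 shRNA, then the scramble siRNA and its ZRANB1 siRNA, and was not called in either comparison with a scramble control (limma adjusted p = 0.202 and 0.774). PKP1, the plakophilin of stratified epithelia, did not exceed 0.0555 FPKM. Of 8 keratinocyte markers, KRT1 and LOR were listed at 0 in all groups and KRT10 was the only one above a group mean of 1 FPKM, at 16.3 to 23.1 FPKM. The summed level of that list was 19.2, 17.9, 21.6 and 24.3 FPKM in the same order of groups; its part in the results was not tested.

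**Figure D3:**
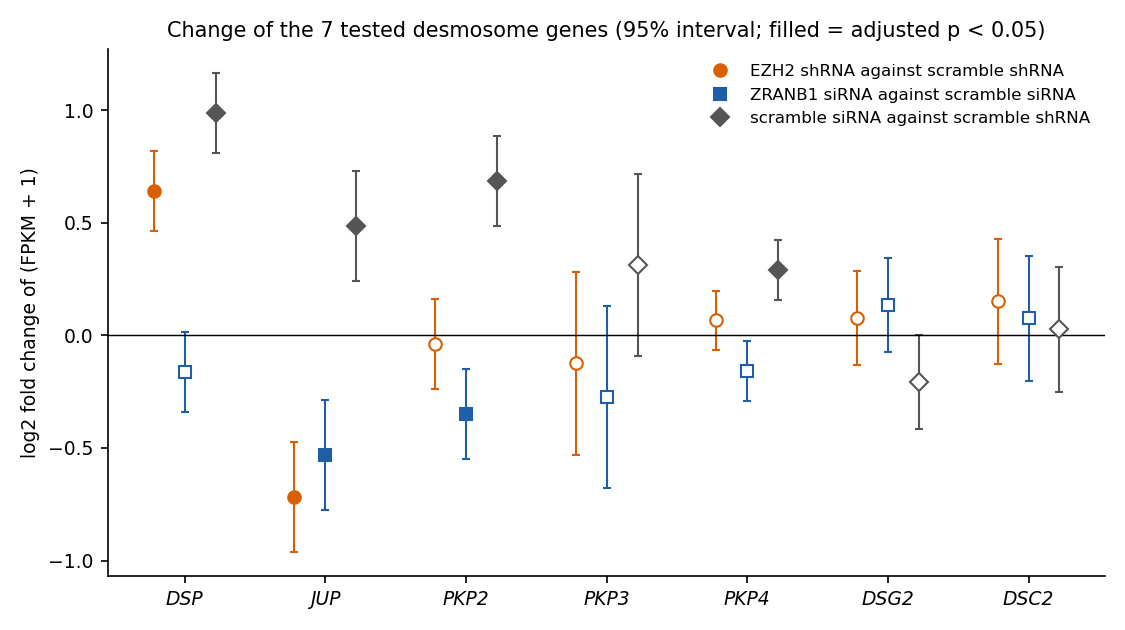
Log2 fold change of (FPKM + 1) of the 7 tested desmosome genes in both comparisons with a scramble control and between these controls; bars are 95% intervals and filled symbols passed an adjusted p of 0.05 in limma. DSP rose by 0.64 with the EZH2 shRNA, JUP was lower in both comparisons with a scramble control (-0.72 and -0.53), and the differences between the controls reach 0.99 for DSP.

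The other comparison set the libraries labelled ZRANB1 siRNA against the scramble siRNA. JUP and PKP2 fell, and no desmosome gene rose. Of the 7 tested desmosome genes, 2 fell, where 16.6% of all tested genes were called, 10.1% higher and 6.50% lower. The median log2 fold change of the 7 genes was -0.16, against -0.017 over all tested genes.

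JUP had 9.51, 11.2 and 11.5 FPKM with the scramble siRNA and 6.79, 6.96 and 7.57 FPKM in the libraries labelled ZRANB1 siRNA. No value of one group reached the other. The means were 10.7 ± 1.08 and 7.11 ± 0.407 FPKM (SD, n = 3), a level of 66.1% of the control, with a log2 fold change of -0.53 (SE 0.111, 95% interval -0.78 to -0.29) and a limma adjusted p of 0.00706. JUP was thus called lower in both comparisons with a scramble control, which do not share control libraries. Of all tested genes, 0.419%, 50 of 11929, were called lower in both. Both JUP calls rest on the spread estimated in the same fit. The JUP call with the EZH2 shRNA was lost when only the shRNA groups were fitted. The gap between both log2 fold changes was 0.18 (95% interval -0.16 to 0.53, limma adjusted p = 0.536), so they were not shown to differ. Over the 4 groups JUP was lowest with the EZH2 shRNA, followed by the ZRANB1 siRNA, the scramble shRNA and the scramble siRNA. The ZRANB1 siRNA and scramble shRNA groups in the middle were not called different (limma adjusted p = 0.788), whereas the lowest group and the highest each differed from its neighbour (limma adjusted p = 0.00124 and 0.00356). Between the ZRANB1 siRNA and scramble shRNA groups, 29.4% of all tested genes were called.

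PKP2 had 13.0, 13.7 and 13.8 FPKM with the scramble siRNA and 9.95, 10.5 and 10.8 FPKM in the libraries labelled ZRANB1 siRNA. All values of the latter lay below the control. The means were 13.5 ± 0.451 and 10.4 ± 0.425 FPKM (SD, n = 3), a level of 76.9% of the control, with a log2 fold change of -0.35 (SE 0.091, 95% interval -0.55 to -0.15) and a limma adjusted p of 0.0222. This call was lost in 4 of the 6 fits that left out 1 value of either group, over which the limma adjusted p ran from 0.0465 to 0.0804. PKP2 was lower in both shRNA groups, at 8.06 ± 0.624 FPKM in the scramble control and 7.84 ± 1.12 FPKM under the EZH2 shRNA, so the libraries labelled ZRANB1 siRNA lay above both shRNA groups (limma adjusted p = 0.0172 and 0.0103) and below their own control. The log2 fold change of PKP2 in these libraries minus that with the EZH2 shRNA was -0.31 (95% interval -0.59 to -0.027) and was not called (limma adjusted p = 0.168).

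DSP, PKP3 and PKP4 had lower means in the libraries labelled ZRANB1 siRNA without passing the test. DSP stood at 24.4 ± 1.36 FPKM against 27.4 ± 1.37 FPKM (SD, n = 3), with values that did not overlap and a log2 fold change of -0.16 (95% interval -0.34 to 0.015, limma adjusted p = 0.21). PKP4 had 28.7, 29.4 and 30.3 FPKM against 31.2, 33.6 and 34.3 FPKM, also without overlap, with a log2 fold change of -0.16 (95% interval -0.29 to -0.026, limma adjusted p = 0.102). With JUP and PKP2, 4 of 7 tested desmosome genes thus lay below the control without overlap, where 18.0% of tested genes did so and 36.4% had no overlap in either direction. PKP3 had 12.4, 16.3 and 17.7 FPKM against 14.9, 19.4 and 22.6 FPKM, which overlapped, with a log2 fold change of -0.27 (95% interval -0.68 to 0.13, limma adjusted p = 0.36).

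The cadherins had slightly higher means and did not pass the test either. DSG2 had 27.6, 30.2 and 32.0 FPKM in the libraries labelled ZRANB1 siRNA against 26.1, 26.9 and 28.5 FPKM in their control, with a log2 fold change of 0.13 (95% interval -0.076 to 0.34, limma adjusted p = 0.393). DSC2 had 2.99, 3.06 and 3.85 FPKM against 2.57, 3.02 and 3.68 FPKM, a log2 fold change of 0.076 (95% interval -0.20 to 0.35, limma adjusted p = 0.752). Both genes overlapped between the groups.

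The differences from the scramble control in both comparisons were set against each other with an interaction contrast in limma. DSP was the desmosome gene for which they differed: the difference in the libraries labelled ZRANB1 siRNA minus that with the EZH2 shRNA was -0.80 on the log2 scale (95% interval -1.06 to -0.55, limma adjusted p = 9.10e-04), where 10.5% of tested genes were called in this contrast and 3.58% with this sign. The differences of the other 6 tested genes were not called, with limma adjusted p from 0.13 to 0.857.

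The scramble controls differed from each other, which bears on the starting level of each comparison. DSP, JUP, PKP2 and PKP4 were higher in the siRNA control than in the shRNA control. These were 4 of 7 tested desmosome genes, and 0 were lower, where 50.6% of all tested genes were called, 25.5% higher and 25.1% lower. DSP had a ratio of 2.05 between these controls and a log2 difference of 0.99 (95% interval 0.81 to 1.16, limma adjusted p = 1.61e-06). The log2 difference was 0.68 for PKP2 (limma adjusted p = 7.80e-05), 0.49 for JUP (0.00356) and 0.29 for PKP4 (0.00193). DSG2 lay lower in the scramble siRNA values without overlap, with a log2 difference of -0.21 that was not called (limma adjusted p = 0.091). With it, 5 of 7 tested desmosome genes had no overlap between the controls, as did 59.9% of all tested genes. By the labels, the controls differed in the kind of RNA and in its delivery, by transduction or transfection, and these cannot be told apart. Any other difference between the controls, such as in culture or library batch, cannot be told apart from these either. The mean of the libraries labelled ZRANB1 siRNA lay between the scramble siRNA and scramble shRNA means for 5 of 7 tested desmosome genes and between the scramble siRNA and EZH2 shRNA means for 7 of 7; these shares were 68.1% and 72.3% among all tested genes.

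The levels of the remaining members were ordered less clearly. For PKP4 the order from the lowest was scramble shRNA, EZH2 shRNA, ZRANB1 siRNA and scramble siRNA, with no neighbours called different (limma adjusted p from 0.102 to 0.582). The scramble siRNA group was called higher than the EZH2 shRNA group (log2 difference 0.22, limma adjusted p = 0.00879), as it was against the scramble shRNA. DSG2 had the scramble siRNA at the bottom and the EZH2 shRNA at the top. Its neighbours were not called different, whereas these ends were, with a log2 difference of -0.29 (limma adjusted p = 0.0257), where 51.6% of all tested genes were called between them. PKP3 and DSC2 had no pair of groups that was called different.

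Genes whose 4 group means followed a member most closely were found by the Euclidean distance between centred means of log2(FPKM + 1) over the 4 groups. For JUP these were the cyclin gene CCNA1 (distance 0.0712), the cytokine signalling inhibitor gene SOCS3 (0.0802) and the homeobox gene NKX6-1 (0.126). SOCS3 had 18.3 FPKM with the scramble shRNA, 10.9 FPKM with the EZH2 shRNA, 26.4 FPKM with the scramble siRNA and 19.0 FPKM in the libraries labelled ZRANB1 siRNA. For DSP the nearest were PMS2P4 (0.121), BCYRN1 (0.122) and RPSAP52 (0.125), which are a pseudogene, a short non-coding RNA gene and a further pseudogene, all with near-identical copies elsewhere, so that their levels are uncertain. Few genes were this close to both members: 2 lay within a distance of 0.1 of JUP and 0 of DSP. PKP2 had 139 genes within that distance, the nearest being POLR1E (0.0191), SETD8 (0.0272) and RFC5 (0.028). The flatter profiles had more, from 257 for PKP3 to 484 for DSG2. The nearest gene was CTC1 for PKP3, SEC23A for PKP4, ANAPC15 for DSG2 and KLHL7 for DSC2, followed by COX5B and UQCC1 for PKP3, ABCB8 for PKP4, ZSCAN29 and RAB11B-AS1 for DSG2, and CDKAL1 and SUV39H2 for DSC2. With 4 group means as the only points, these distances are a description.

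Other junction genes were counted from lists, to be read against the 3.39% higher and 3.03% lower of all tested genes with the EZH2 shRNA and the 10.1% higher and 6.50% lower in the libraries labelled ZRANB1 siRNA. PPL, KRT17, CDH11 and EHF had means under 1 FPKM over the siRNA groups and passed the filter through the shRNA groups, where they were higher, so for the siRNA groups their values are given as a description and their calls, though counted, support nothing. Among the plakins, the family of DSP, 1 of 5 tested genes was called lower with the EZH2 shRNA and 1 higher in the libraries labelled ZRANB1 siRNA, and both were PPL. PPL encodes periplakin, a partner of intermediate filaments at the cell cortex. It fell from 6.31 to 3.41 FPKM with the EZH2 shRNA (log2 fold change -0.73, limma adjusted p = 0.00329), and stood at 1.40 against 0.192 FPKM in the libraries labelled ZRANB1 siRNA. Of the filament genes, 0 of 6 tested were called with the EZH2 shRNA. In the libraries labelled ZRANB1 siRNA, 1 gene was called lower and 1 higher: KRT19 fell from 47.4 to 28.6 FPKM, and KRT17 stood at 1.40 against 0.0216 FPKM. With the scramble shRNA, KRT19 stood at 7.53 FPKM, below both siRNA groups, and KRT17 at 3.04 FPKM, above both. The part of these starting levels in the changes was not tested.

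Adherens junction genes had 1 higher and 2 lower of 9 tested with the EZH2 shRNA. The nectin gene PVRL1 rose from 6.46 to 9.42 FPKM, while the α-catenin gene CTNNA1 fell from 177 to 152 FPKM and the cadherin gene CDH11 from 3.56 to 1.77 FPKM. CDH11 was the 1 gene of this list called in the libraries labelled ZRANB1 siRNA, at 0.937 against 0.0419 FPKM. The classical epithelial cadherin gene CDH1 did not exceed a group mean of 0.0450 FPKM. Tight junction genes had 1 of 9 higher with the EZH2 shRNA and 3 higher in the libraries labelled ZRANB1 siRNA, among them the claudin gene CLDN7, from 2.27 to 6.05 FPKM. Of 3 tested gap junction genes, the connexin gene GJB2 was called, higher in the libraries labelled ZRANB1 siRNA, at 4.35 against 2.34 FPKM. With the scramble shRNA, CLDN7 stood at 11.8 FPKM and GJB2 at 7.49 FPKM, above both siRNA groups. The part of these starting levels in the changes was not tested.

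Hemidesmosomes anchor the same filaments to the matrix below the cell. Their genes had 2 lower and 0 higher of 7 with the EZH2 shRNA and 5 higher and 1 lower of 7 in the libraries labelled ZRANB1 siRNA. The integrin gene ITGB4 fell from 82.9 to 37.4 FPKM with the EZH2 shRNA (log2 fold change -1.13, limma adjusted p = 4.76e-04). In the libraries labelled ZRANB1 siRNA, the laminin chain gene LAMB3 rose from 119 to 203 FPKM and the integrin gene ITGA6 from 46.4 to 74.2 FPKM. The median log2 fold change of this list in the latter comparison was 0.60, against -0.16 for the desmosome genes. Between the controls, 6 of the 7 genes were lower and 1 higher with the scramble siRNA, with a median of -1.13. Of all tested genes, 25.1% were called lower there and 25.5% higher. The part of these starting levels in the changes in the libraries labelled ZRANB1 siRNA was not tested.

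Transcription factors that repress or maintain epithelial genes had 3 lower of 9 tested with the EZH2 shRNA and 4 higher of 9 in the libraries labelled ZRANB1 siRNA. EHF fell from 7.72 to 4.02 FPKM, ELF3 from 2.22 to 1.09 FPKM and KLF4 from 27.4 to 19.4 FPKM with the EZH2 shRNA. In the libraries labelled ZRANB1 siRNA, KLF4 rose from 7.31 to 13.0 FPKM and EHF stood at 1.78 against 0.0346 FPKM. ELF3 lay the other way there, at 0.529 against 0.911 FPKM, with both means under 1 FPKM, and was not called. The repressor gene SNAI2 rose in these libraries, from 13.2 to 22.4 FPKM. So did the repressor gene ZEB2, named here after its values were seen, which reached 2.94 FPKM (log2 fold change 0.34, limma adjusted p = 0.022). With the scramble shRNA, KLF4 stood at 27.4 FPKM, SNAI2 at 29.2 FPKM and ZEB2 at 3.18 FPKM, above both siRNA groups. The part of these starting levels in the rises was not tested. ZEB1, whose protein represses epithelial junction genes, was at group means of 13.9 to 16.0 FPKM and was not called in either comparison with a scramble control. GRHL2, an activator of epithelial junction genes, was listed at 0 in all 12 values. Of 12 tested genes that act on desmosome assembly or shedding, 1 rose and 1 fell with the EZH2 shRNA. The growth factor receptor gene EGFR rose from 19.7 to 31.3 FPKM (log2 fold change 0.64, limma adjusted p = 7.46e-04), and the palmitoyltransferase gene ZDHHC5 fell from 42.9 to 36.5 FPKM. In the libraries labelled ZRANB1 siRNA, the protein kinase C gene PRKCA fell from 30.5 to 25.0 FPKM. PRKCA stood at 19.8 FPKM with the scramble shRNA, below both siRNA groups.

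**Figure D4:**
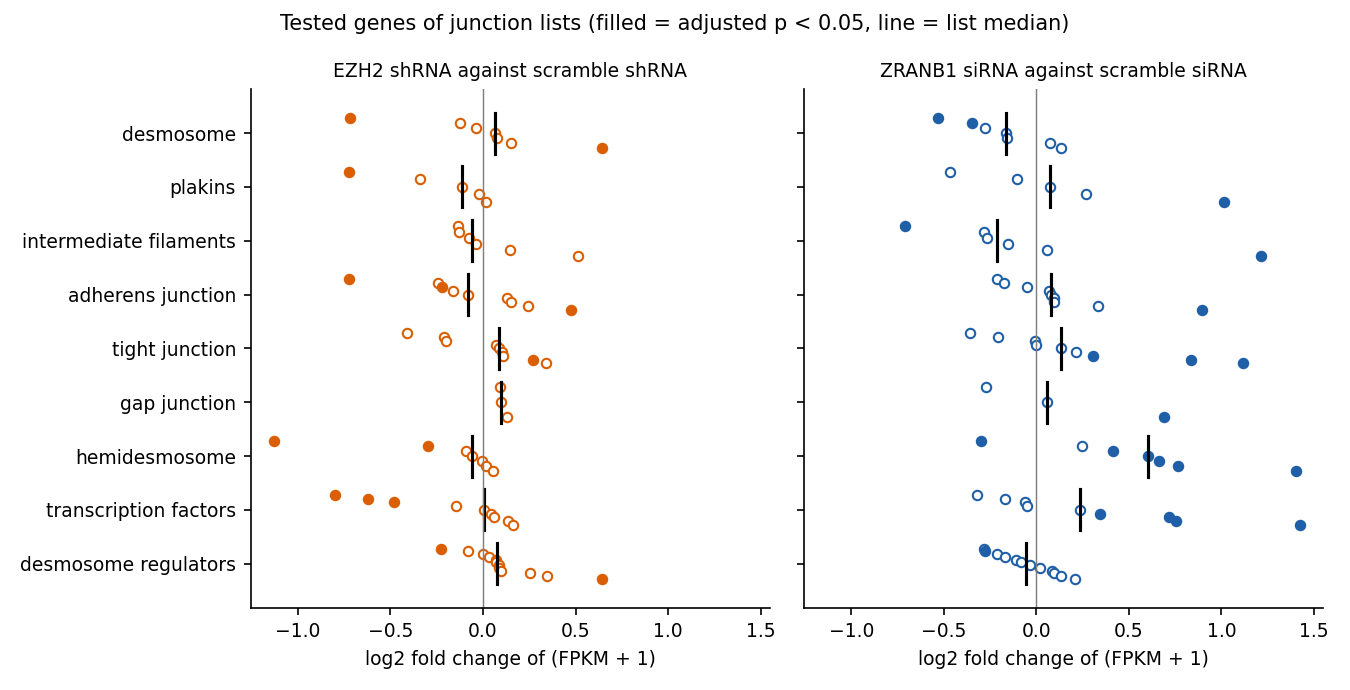
Log2 fold change of (FPKM + 1) of the tested genes of each junction list in both comparisons with a scramble control; circles are genes, filled where limma gave an adjusted p below 0.05, and black lines are list medians. The desmosome genes have medians of 0.066 and -0.16, and the hemidesmosome genes a median of 0.60 in the libraries labelled ZRANB1 siRNA.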

How the data were processed

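RNA of 12 LM2 libraries was profiled, and the authors' values were deposited as FPKM in 1 table of 26006 rows. The submitters' processing notes name hg19 as the build and, as tools, Cufflinks 2.2.1 and Cuffdiff 2.2.1, TopHat2 2.1.1 and SAMtools. Options, annotation, strand setting and scaling were not given in the sources used here. The unit divides by transcript length and library size, so abundant genes lower the values of others.

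The 8 members, the lists and the motifs were chosen with earlier results of these data known. Symbols with several rows (440) were represented by their most abundant row; 27 rows with symbols turned into dates were kept apart. On log2(FPKM + 1), limma 3.58.1 in R 4.3.3 fitted 1 mean per group (8 residual degrees of freedom, variance trend), and p-values were adjusted by Benjamini and Hochberg over the 11929 genes whose mean reached 1 FPKM. All members were named, with up to 4 tested genes of each other list by lowest adjusted p, genes whose absence or level was needed, and the 3 nearest genes per tested member; some genes that this rule names are not reported here. The alternatives tried were no filter or one at 5 FPKM, a pseudocount of 0.1, only the groups compared, no variance trend, 1 scaling factor per group, summed rows, and leaving out each value. The steps were tested on simulated data. Figures were drawn with matplotlib 3.10.9. Precision is limited by 3 values per group.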

Additional observations from a re-analysis of the deposited data

Results flagged for a closer look

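The log2 fold change of DSP in the libraries labelled ZRANB1 siRNA minus that with the EZH2 shRNA, each against its scramble control, was -0.80, and passed the interaction test in limma with an adjusted p of 9.10e-04. DSP rose with the EZH2 shRNA in 3 of 3 values above its control, and lay below its control in 3 of 3 values in the libraries labelled ZRANB1 siRNA, where the difference from the scramble siRNA was not called (limma adjusted p = 0.21). The scramble shRNA control, at 13.4 FPKM, was the lowest group for DSP, and the scramble siRNA control, at 27.4 FPKM, the highest; the part of these starting levels in the difference was not tested.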

How the results depend on the processing

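Of the changes of the 7 tested desmosome genes in the 4 contrasts, 390 values under an alternative kept the side of the threshold and 5 lost a call; none of these alternatives turned a called direction. The lost calls were that of JUP with the EZH2 shRNA when only the groups compared were fitted, which left 1 member called, and that of PKP2 in the libraries labelled ZRANB1 siRNA in 4 fits without 1 value, where 1 to 2 members were called. The count of genes called with the EZH2 shRNA was 765, and was 503 with a filter at 5 FPKM, 185 with only the groups compared, and 412 to 607 without 1 value of a group. Values were left out after a random order per gene, since a column did not follow a library. The largest scaling factor between groups was 1.01. No paired analysis was possible because the 3 values of a group stood in text order in each row, so the replicate number of a column named no library. Depth was unknown, which limits what can be said of DSC3 and other genes far below 1 FPKM.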

Other observations

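The order of the JUP group means was also that of EZH2 itself, which stood at 16.5, 30.4, 35.4 and 48.6 FPKM in the EZH2 shRNA, ZRANB1 siRNA, scramble shRNA and scramble siRNA groups, against 4.12, 7.11, 7.40 and 10.7 FPKM for JUP. The ZRANB1 siRNA and scramble shRNA groups were not called different for JUP (limma adjusted p = 0.788), so its order was not resolved in the middle. JUP was the 1 desmosome gene of 7 tested with this order of means, which 4.06% of all tested genes shared. With 4 groups no correlation was computed.

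EGFR had its lowest group mean with the scramble shRNA, as DSP did. Among the listed genes that act on desmosome assembly or shedding, PRKCA, PRKCD, PRKCE, SRC and ATP2A2 did so too, and the rest did not. The share of all tested genes with this trait was not counted, so it is not particular to EGFR and DSP. EGFR stood at 19.7 FPKM with the scramble shRNA, 31.3 FPKM with the EZH2 shRNA, 29.3 FPKM with the scramble siRNA and 31.3 FPKM in the libraries labelled ZRANB1 siRNA. Among fibroblast markers, COL1A1 was the 1 gene of 6 above a group mean of 1 FPKM, and the summed level of that list was 25.4, 20.2, 8.83 and 17.9 FPKM in the scramble shRNA group and its EZH2 shRNA, then the scramble siRNA group and its ZRANB1 siRNA; DCN, LUM and COL3A1 were listed at 0 with the scramble siRNA. The part of this list in the results was not tested.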
